A study of Polypedilum vanderplanki with 24 samples.

Results

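Gene levels in the HSF1-rescue line were set against those in the HaloTag control line of Pv11 cells before trehalose treatment (T0), for all 17782 genes of the deposited table of mean TPM. Pv11 cells were derived from embryos of Polypedilum vanderplanki, the sleeping chironomid, a midge, and survive drying after incubation with trehalose. The comparison took 6 of the 24 libraries of the series, 3 per line, from cells in normal culture; the study also sequenced wild-type (WT) cells and the Hsf1-/- line, and all 4 lines after 48 h in trehalose (T48). Both lines compared carry the same Hsf1-/- knockout, an AcGFP1 and zeocin-resistance (ZeoR) cassette in exon 1 of Hsf1. The rescue line (Hsf1-/-; Hsf1-HaloTag/BlaR) also has Hsf1 with a FLAG tag, a P2A peptide, HaloTag and a blasticidin-resistance gene (BlaR) in front of the stop codon of gene g7775, which drives them, and the control line (Hsf1-/-; HaloTag/BlaR) has HaloTag and BlaR alone at that site. Each line is 1 clone grown from a sorted single cell, so a difference between the clones and an effect of HSF1 cannot be told apart here. The table gives the authors' mean over the 3 libraries of a line and no library values, so no value below has an SD, no test between the lines was run, and a difference cannot be set against the spread between libraries.

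HSF1, heat shock factor 1, is a transcription factor that binds as a trimer to heat shock elements (HSEs), repeats of the unit nGAAn in alternating direction, and in many animals it drives the genes of heat shock proteins (Hsps). Hsps are chaperones that help proteins fold and keep unfolded proteins from clumping. In P. vanderplanki, drying is also met with late embryogenesis abundant (LEA) proteins, thioredoxins, protein-L-isoaspartate methyltransferases (PIMT), LEA-island-located (LIL) proteins and trehalose, many of them encoded in gene arrays on chromosome 4.

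HSE matches listed in the table came from the motif scanner FIMO, run on a window of 1000 bases around each transcription start site. The matches printed here, 5′ to 3′ on the matching strand of assembly Pv_5.2, are those of lowest FIMO p in the windows of the merged Hsp70 gene, of 2 small Hsp genes, and of 4 further genes chosen by rule for their low FIMO p among those at least 2-fold higher in the rescue line. No annotation, here and below, means that no protein domain was read and no named similarity was kept, hits labelled CLUMA being left out. Capitals mark each GAA and TTC, the core of an HSE unit on one strand or the other.
g239,g240,g241 (Hsp70): TTCtcGAAtaTTC
g5646 (Hsp23 type): TTCtcGAAtgTTC
g5648 (small Hsp): atcgaGAAtaTTC
g16359 (Pimt): TTCtaGAAtaTTC
g12182 (no annotation): TTCtcGAAttTTC
g16184 (PvLEA1): gctccgGAAgaTTCc
g16182 (no annotation): TTCtaGAAttttt
The Hsp70 match lies at chr1:1915985-1915997 on the plus strand (FIMO p 4.24e-07), the g5646 match at chr2:10878682-10878694 on the minus strand (p 2.56e-07) and the g5648 match at chr2:10883149-10883161 on the plus strand (p 4.57e-06). The Pimt match, with the lowest p of the 7, lies at chr4:9191981-9191993 on the plus strand (p 9.25e-08), 79.5 bases before the centre of its window, and a further run, TTCtaGAAaaTTC, lies at chr4:9191961-9191973 (p 8.22e-07). The g12182 match is at chr3:21554086-21554098 on the minus strand (p 9.98e-07), that of g16184 at chr4:8448169-8448183 on the plus strand (p 2.45e-06) and that of g16182 at chr4:8447041-8447053 on the minus strand (p 2.52e-06). In 4 of the 7 sequences all 3 units have their core letters, and in the other 3 one unit is degenerate. A match is a description of sequence and not in itself a measurement of HSF1. Of the genes printed, the study assayed the g5646 promoter by ChIP-qPCR. With an antibody to the FLAG tag it reported HSF1 there in the rescue line, and more of it after trehalose.

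Hsf1 itself did not serve as a check of the labels. Its gene model, g3611 (chr1:26743487-26747182, minus strand), is the only gene of the table annotated with an HSF-type DNA-binding domain, and it had 0.00892 TPM in the rescue line and 0.0110 TPM in the control line, with 0.0271 TPM in Hsf1-/- and 0.0863 TPM in WT cells. These levels are near 0 in WT cells too. On a western blot the study reported HSF1 protein in the rescue line and not in the control line. The host of both inserts, g7775 (chr2:25899242-25899664, minus strand), was the most abundant gene of the rescue line at 36839.9 TPM, against 48409.6 TPM in the control line, a log2 ratio of -0.39; Hsf1-/- cells had 48156 TPM and WT cells 102838 TPM.

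Levels of most genes lay close together in the 2 lines. Of the 17782 genes, 11239 were above 0 in at least 1 of the lines and 7841 reached 1 TPM in at least 1 of them. Those 7841 are the genes compared, and are called tested below although no statistical test was run. A gene was counted as higher or lower when its log2 ratio of (TPM + 1), rescue over control, was at least 1 in size, that is at least 2-fold on that scale, a scale on which changes of low genes are compressed. On this rule 358 genes (4.57%) were higher and 189 (2.41%) lower in the rescue line, 547 (6.98%) in all. Both counts depend on the settings: a minimum of 5 TPM gave 227 higher genes, and a pseudocount of 0.1 gave 325 lower genes. Of the higher genes, 169 reached 1 TPM in the rescue line only, the line where they are high, and of the lower genes, 47 reached it in the control line only. Of the 7337 genes with at least 1 TPM in both lines, 189 were higher (2.58%) and 142 lower (1.94%). Over all genes tested, the median log2 ratio was -0.09, and the 5th and 95th percentiles were -0.77 and 0.94. Ratios of 4-fold or more were found for 104 higher and 24 lower genes, and of 8-fold or more for 32 higher and 4 lower genes. Of the higher genes, 171 had at least 10 TPM in the rescue line, and of the lower genes, 95 had at least 10 TPM in the control line. In the higher set, 38 genes were listed at 0 in the control line, and in the lower set 5 were listed at 0 in the rescue line. The same rule over the Hsf1-/- line and the control line, which both lack Hsf1 at the locus, gave 106 higher (1.38%) and 31 lower (0.403%) genes of 7699, or 1.78% in all.

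**Figure D1:**
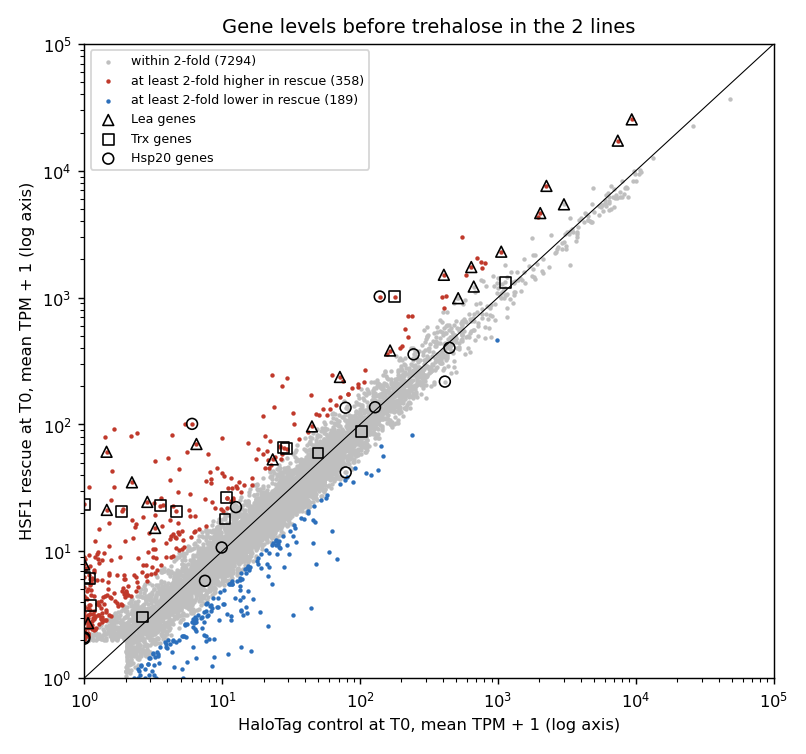
Mean TPM + 1 of each gene in the HSF1-rescue line (vertical log axis) against the HaloTag control line (horizontal log axis) at T0, 1 point per tested gene, with the line of equal levels. Red points are the 358 higher genes and blue points the 189 lower genes; the outlined Lea, Trx and Hsp20 genes lie mostly above the line of equal levels.

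The Hsp genes were split. Over the Hsp10, Hsp20, Hsp40, Hsp60, Hsp70 and Hsp90 lists, 40 genes were tested, 9 were higher and none lower, beside 4.57% higher and 2.41% lower over all genes tested. Of the 9, 2 Hsp20 genes and 1 Hsp70 row, the merged one described next, reached 1 TPM in the rescue line only, the line where they are high. The widest ratios were in Hsp70 and the small Hsps. The table merges 3 Hsp70 genes into 1 row, g239,g240,g241 (chr1:1916322-1916920), which the study treated as 1 gene; its level was 8.07 TPM in the rescue line, against 0 TPM listed in the control line, with 0 TPM listed in Hsf1-/- and 37.7 TPM in WT cells. This is the Hsp70 whose window holds the TTCtcGAAtaTTC match shown above.

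Of the other Hsp70 genes, g2685 was higher, with 4307 TPM in the rescue line and 1944 TPM in the control line (log2 ratio 1.15). The most abundant member, the constitutive heat shock cognate type g11137, had 9467 TPM in the rescue line and 9923 TPM in the control line (-0.07), and g10883, named after its values were seen, had 851 and 835 TPM in those lines (0.03). The fifth row of the list was under 1 TPM in both lines.

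Small Hsps (Hsp20 family) hold unfolded proteins without using ATP. A run of 3 neighbours on chromosome 2 was higher. The first, g5646 (chr2:10877836-10878453), with best similarity to Hsp23, had 100.1 TPM in the rescue line and 5.05 TPM in the control line (log2 ratio 4.06), and WT cells had 72.8 TPM. The most abundant small Hsp, g5648 (chr2:10883329-10884144), had 1019.6 TPM in the rescue line and 138 TPM in the control line (2.88), with 634 TPM in WT cells. Between them lies g5647, named after its values were seen, with an Hsp20 domain but absent from the study's Hsp list, at 115 TPM in the rescue line and 18.8 TPM in the control line (2.55). Hsf1-/- cells had 5.70, 125 and 20.2 TPM of g5646, g5648 and g5647, close to the control line for each. The windows of g5646 and g5648 hold the matches shown above, and none is listed for g5647.

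Over the Hsp20 list, 13 of 16 genes were tested, 4 were higher and none lower, and the median log2 ratio was 0.55. Of the 4, g17121 and g5829, the second of them named after its values were seen, were tested only because the rescue line held 1.09 and 1.04 TPM of them, and both were listed at 0 in the control line. The neighbours g10586 and g10587, named after their values were seen, lay on the other side, with 217 and 40.9 TPM in the rescue line and 412 and 77.8 TPM in the control line (-0.92 and -0.91), within 2-fold. The summed TPM of the 16 genes was 2443 in the rescue line and 1553 in the control line.

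Among Hsp40 genes, whose J-domain proteins bring substrates to Hsp70, 2 of 9 tested were higher and none lower (median 0.47): g553 with 487 TPM in the rescue line and 223 TPM in the control line (1.12), and g14582 with 133 and 59.3 TPM in those lines (1.15, but 0.93 over the Hsf1-/- line). Of 4 genes in the Hsp90 list, the endoplasmin type g3606, a chaperone of the endoplasmic reticulum, was higher, with 1024 TPM in the rescue line and 419 TPM in the control line (1.29); g2254 had 586 and 308 TPM in them (0.93), within 2-fold. The Hsp60 list, here mostly subunits of the CCT ring that folds cytoskeletal proteins, had none of its 9 genes past 2-fold, and all 9 had ratios below 0 (8 after median-of-ratios scaling), from -0.57 to -0.06 (median -0.24, beside -0.09 over all genes tested). The mitochondrial co-chaperonin Hsp10, g6689, had 279 TPM in the rescue line and 329 TPM in the control line (-0.24). Both co-chaperones tested were within 2-fold, the Aha1-like activator of Hsp90 g12051 at 0.72 and the BAG-domain gene g1980 at 0.25. In the broader annotation for protein folding, 41 genes had a median of -0.08 and 3 were higher, all of them members of the Hsp lists; no peptidyl-prolyl isomerase of 16 passed 2-fold (median -0.26).

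LEA proteins are hydrophilic proteins that accumulate in drying organisms. Of the 27 Lea genes, 22 were tested. Of these, 19 were higher and none lower, beside 4.57% higher and 2.41% lower over all genes tested. The median log2 ratio of the 22 was 1.44, and all 22 ratios were above 0. Of the 19, 4 reached 1 TPM in the rescue line only. The summed level of the 27 genes was 69178 TPM in the rescue line and 27659 TPM in the control line, with 32829 TPM in Hsf1-/- and 48967 TPM in WT cells. The sum rests on the abundant members, of which g16204 (chr4:8519471-8519902) had 25442 TPM in the rescue line and 9357 TPM in the control line (1.44), and g16203 (PvLEA7) had 17287 and 7412 TPM in those lines (1.22). Both were among the 5 most abundant genes of the rescue line. Of the others in those 5, the translation elongation factor EF1-alpha g10339 (22369.8 TPM in rescue, 25899 TPM in control) and the ribosomal protein gene g556 (12541 and 13421 TPM) were within 2-fold, as was g7775. Counting left out reads that fit more than 1 place, so the levels of single genes in families of near-identical copies are uncertain.

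The widest Lea ratios were in genes that the control line barely held. One was g16173 (PvLEA23, chr4:8433879-8434361), with 59.9 TPM in the rescue line and 0.451 TPM in the control line (5.39); Hsf1-/- and WT cells had 0.117 and 0.496 TPM, so the rescue line stood above all 3 other lines. In the second group of Lea genes, g17255 to g17261 on chromosome 4, 3 of 7 members were tested and all 3 were higher. The rescue line held 34.0 TPM of g17261 and the control line 1.22 TPM (3.98). For g17255 they held 20.2 and 0.457 TPM (3.86). The third, g17259, chosen after its values were seen, had 6.87 TPM in the rescue line and was listed at 0 in the control line. Like g17255, it was tested only because the rescue line reached 1 TPM. The Lea genes that stayed within 2-fold, all named after their values were seen, were among the abundant ones: g16180 (PvLEA2) at 0.87, g16187 (PvLEA3) at 0.94 and g16205 (PvLEA5) at 0.85. PvLEA1, g16184, whose match is shown above, had 236 TPM in the rescue line and 70.5 TPM in the control line (1.73).

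The Lil genes lie among the Lea genes and encode proteins of unknown function. Of 13, 12 were tested and 7 were higher, with none lower (median 1.15), beside 4.57% higher and 2.41% lower over all genes tested. Of the 7, 1 reached 1 TPM in the rescue line only. The most abundant, g16190, had 1909 TPM in the rescue line and 751 TPM in the control line (1.35), and g16195 had 79.9 and 19.4 TPM in those lines (1.99). Taken as a stretch of chromosome, the island of g16168 to g16208 (chr4:8423548-8532644) holds 41 genes; 37 were tested, 27 were higher, none was lower and all 37 ratios were above 0 (median 1.22). The island includes genes that are in neither family: g16182, with the match shown above, had 57.8 TPM in the rescue line and 26.0 TPM in the control line (1.12, but 0.89 over the Hsf1-/- line), and g16202, an unannotated gene named after its values were seen, had 2998 and 548 TPM in those lines (2.45).

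**Figure D2:**
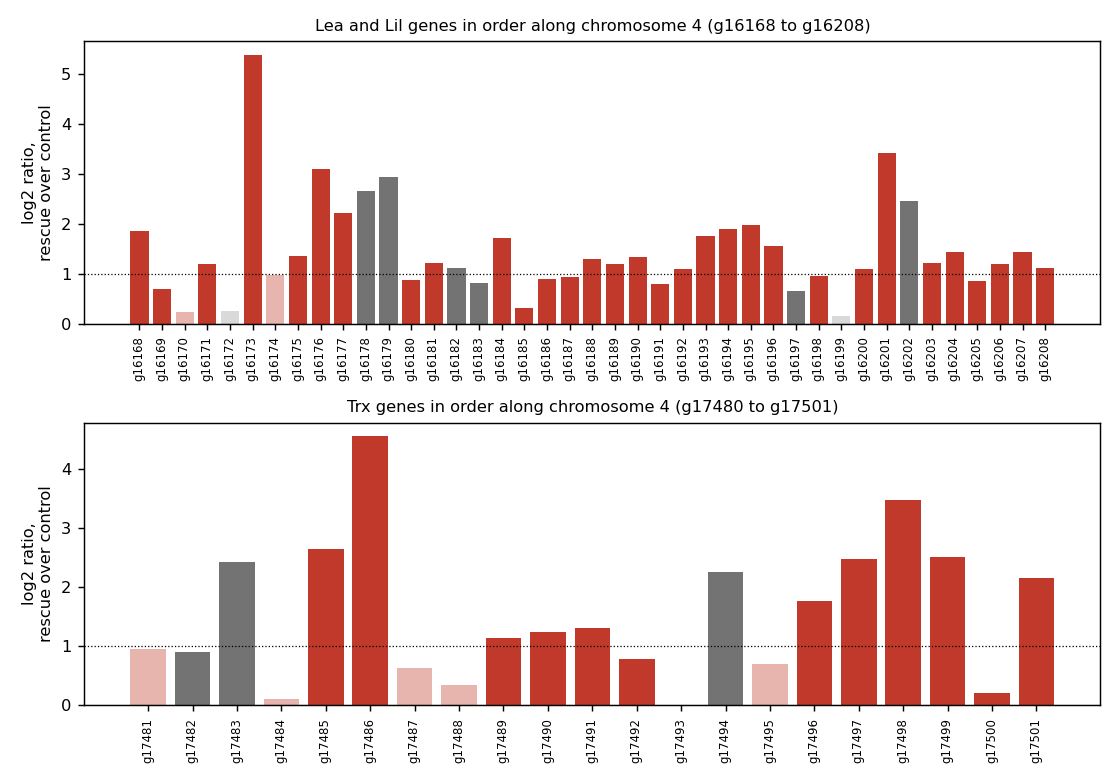
Log2 ratio of (TPM + 1), HSF1 rescue over HaloTag control at T0 (vertical axis), of each gene in order along the Lea and Lil island (top) and the Trx array (bottom) of chromosome 4; dark red bars are tested family members, pale red bars family members under 1 TPM in both lines, grey bars other genes (pale where under 1 TPM), and the dotted line is the 2-fold line. No bar is below 0; g17480 and g17493, at 0 TPM in both lines, have no bar.

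Thioredoxins reduce disulfide bonds and are small redox proteins. Of 25 Trx genes, 16 were tested and 11 were higher, none lower, beside 4.57% higher and 2.41% lower over all genes tested. The Trx median was 1.53, or 1.26 over the 14 genes above 0 in both lines. Of the 11, 5 reached 1 TPM in the rescue line only. In the array at chr4:13655093-13686758, g17486 had 22.5 TPM in the rescue line and was listed at 0 in the control line and in Hsf1-/- cells, with 0.187 TPM in WT cells. Its neighbour g17498 had 19.7 TPM in the rescue line and 0.869 TPM in the control line (3.47). The most abundant gene of the array, g17499, named after its values were seen, had 1013 TPM in the rescue line and 178 TPM in the control line (2.50), with 323 TPM in Hsf1-/- and 210.1 TPM in WT cells. Outside the array, g15788 was also higher, with 21.9 and 2.56 TPM in the rescue and control lines (2.69). The most abundant Trx gene, g11995 on chromosome 3, was within 2-fold, with 1321 TPM in the rescue line and 1132 TPM in the control line (0.22). The broader annotation for redox homeostasis had 12 higher genes of 45, of which 11 were the Trx genes.

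PIMT enzymes repair damaged aspartate residues in proteins. All 14 Pimt genes were tested, 7 were higher and none lower (median 1.07), beside 4.57% higher and 2.41% lower over all genes tested. Over the Hsf1-/- line in place of the control line, 5 Pimt, 15 Lea, 9 Trx and 6 Lil genes were higher. Over the control line these counts were 7, 19, 11 and 7. The most abundant, g16350 (chr4:9164219-9165262), had 229.7 TPM in the rescue line and 28.7 TPM in the control line (2.96), with 37.8 TPM in Hsf1-/- and 55.9 TPM in WT cells. The next widest ratios were those of g16355, with 28.5 and 3.79 TPM in the rescue and control lines (2.62), and g16359, with 11.8 and 1.27 TPM in them (2.50). The Pimt gene outside the array, g6692 on chromosome 2, named after its values were seen, had 25.5 TPM in the rescue line and 26.0 TPM in the control line (-0.03).

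Trehalose is made by trehalose-6-phosphate synthase and a phosphatase and is split by trehalase. The synthase gene, g13302 (chr3:29010571-29015173), had 100.4 TPM in the rescue line and 4.38 TPM in the control line (4.24), with 25.5 TPM in Hsf1-/- and 38.8 TPM in WT cells. Trehalase, g17178, was higher as well, with 269 TPM in the rescue line and 107 TPM in the control line (1.32). The phosphatase g13300 and the trehalose transporter g6534, named after its values were seen, were within 2-fold, at 0.30 and 0.24.

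**Figure D3:**
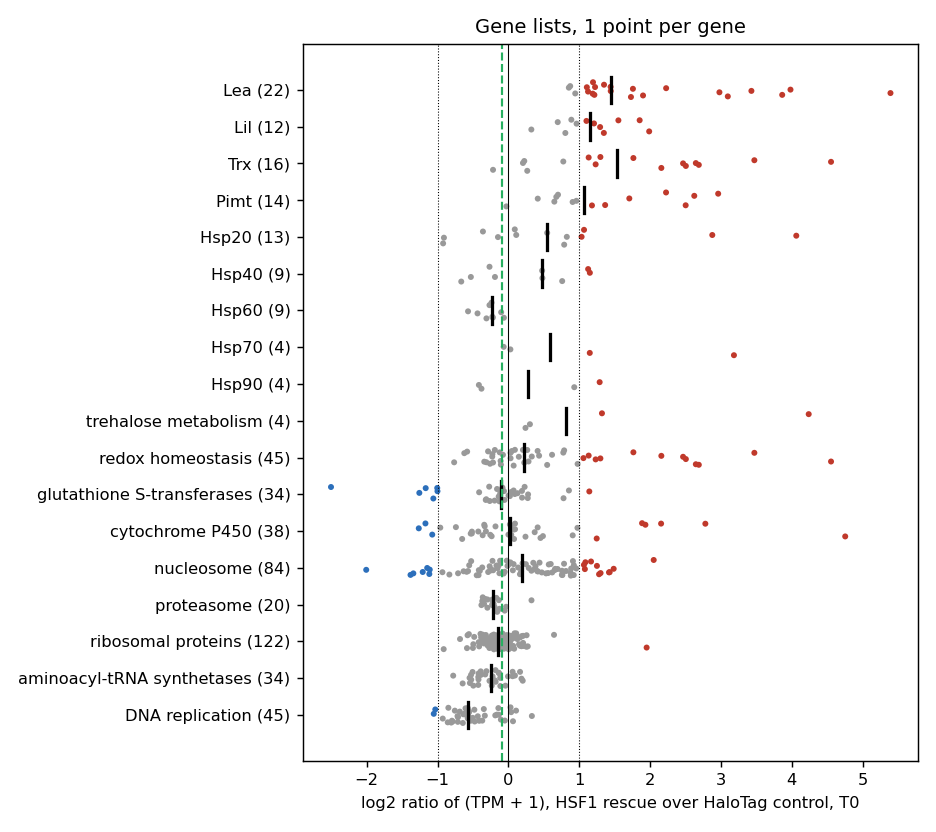
Log2 ratio of (TPM + 1), HSF1 rescue over HaloTag control at T0, for 18 gene lists, 1 point per tested gene (number in brackets), red where higher, blue where lower and grey within 2-fold. Black bars are list medians, the green dashed line is the median of all tested genes (-0.09) and the dotted lines are 2-fold; the medians of Lea (1.44), Trx (1.53), Lil (1.15) and Pimt (1.07) lie right of the 2-fold line and that of DNA replication (-0.57) lies furthest left.

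Outside these families, the highest ratios belonged to genes of several kinds. The beta tubulin gene g5213 (chr2:7841424-7844619) had 91.0 TPM in the rescue line and 0.646 TPM in the control line (5.81), with 1.04 TPM in Hsf1-/- and 4.14 TPM in WT cells, and its neighbour g5214, also a beta tubulin and named after its values were seen, had 21.9 and 3.40 TPM in the rescue and control lines (2.38). The gene g6912, with a 5′-nucleotidase domain, had 78.1 TPM in the rescue line and 0.424 TPM in the control line (5.79), and WT cells had 95.5 TPM, close to the rescue line. An immunoglobulin-domain gene, g4436, had 84.7 and 1.43 TPM in the rescue and control lines (5.14). The collagen IV type gene g5801, a basement membrane component, had 31.3 and 0.650 TPM in them (4.29); its neighbours g5804 and g5809, seen only after the values, were higher too, at 1.11 and 2.81.

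In 5 of the 12 highest genes, g13302 and the 4 that follow, the Hsf1-/- line was nearer to the rescue line than to the control line on the log2 scale. The fork head transcription factor gene g10530 had 80.7 TPM in the rescue line and 1.19 TPM in the control line (5.23), while Hsf1-/- cells, which have no rescue insert, had 33.6 TPM and WT cells 0.0525 TPM. The fatty-acid binding type gene g3488 had 31.4 TPM in the rescue line and 0.0870 TPM in the control line (4.90), and 30.0 TPM in Hsf1-/- cells. The cytochrome P450 gene g55 had 41.6 TPM in the rescue line, 0.582 TPM in the control line (4.75) and 17.0 TPM in Hsf1-/- cells. For the teneurin type gene g14965, a large cell-surface protein, these levels were 81.0 TPM in the rescue line, 3.31 TPM in the control line (4.25) and 28.1 TPM in Hsf1-/- cells. Over the Hsf1-/- line, the log2 ratios of the rescue line were 1.24 for g10530, 0.06 for g3488 and 1.24 for g55, each smaller than over the control line. The part of clone differences in these ratios was not tested.

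**Figure D4:**
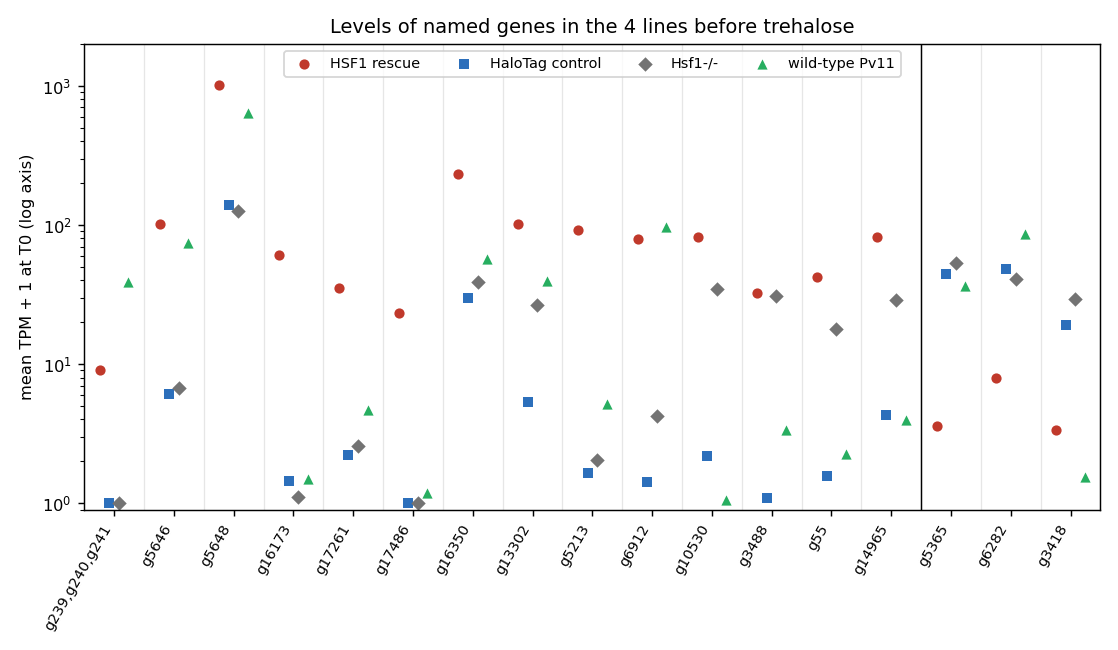
Mean TPM + 1 at T0 (log axis) of 17 named genes in the HSF1 rescue (circles), the HaloTag control (squares), Hsf1-/- (diamonds) and wild-type Pv11 (triangles), 14 higher genes left of the black line and 3 lower genes right of it. For g5646 and g5648 the Hsf1-/- point lies beside the control point and the wild-type point near the rescue point; for g13302, g10530, g3488, g55 and g14965 the Hsf1-/- point lies nearer to the rescue point.

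Genes that were lower in the rescue line were fewer, and the lowest held domains of several kinds. The lowest ratio was that of g5365 (chr2:9242028-9243456), with a CHK kinase-like domain, at 2.58 TPM in the rescue line and 43.1 TPM in the control line (-3.62); Hsf1-/- and WT cells had 52.4 and 35.6 TPM, so the rescue line was below all 3 other lines. Its neighbours g5364 and g5366, of the same domain and named after their values were seen, had ratios of -2.57 and -2.84, and g510, a gene of this domain on chromosome 1, had -2.21. Of 19 tested genes with the domain, which was picked after the values were seen, 5 were lower and none higher. Over all genes tested, 2.41% were lower and 4.57% higher.

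The insulin-like peptide gene g6282 was also lower, with 6.94 TPM in the rescue line and 47.1 TPM in the control line (-2.60), and 40.1 TPM in Hsf1-/- and 84.6 TPM in WT cells. The glutathione S-transferase gene g3418 had 2.34 TPM in the rescue line and 18.0 TPM in the control line (-2.50); WT cells had 0.549 TPM of it, below the rescue line. Glutathione S-transferases detoxify by joining glutathione to substrates. Of the 34 tested, 6 were lower and 1 higher (median -0.10), beside 2.41% lower and 4.57% higher over all genes tested. The 6 include a run of neighbours on chromosome 4, g14847, g14848 and g14849, the last 2 named after their values were seen. Their ratios lay close to the 2-fold line, the lowest at -1.06. That of g14847 was -0.99 after median-of-ratios scaling, within 2-fold, and -1.85 over the Hsf1-/- line. Both g14847 and g6244, another of the 6, were under 1 TPM in the rescue line (0.935 and 0.954 TPM). Other low ratios were those of g4430, with a receptor L-domain (2.15 TPM in rescue, 31.4 TPM in control, -3.36), the MYND and Tudor domain gene g7337 (-3.31), the RNA-recognition-motif gene g5879 (-3.06), the ankyrin-repeat gene g13562 (-2.98), the C2-domain gene g10697 (-2.97) and the sulfatase SULF-1 type gene g6813 (-2.59). WT levels of the lower genes often lay at the rescue side, as for g5879, listed at 0 in WT cells, against 1.58 TPM in the rescue line and 20.6 TPM in the control line.

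Genes for copying DNA had the lowest median of the lists. Of 45 DNA replication genes tested, 40 had ratios below 0 (39 after median-of-ratios scaling) and the median was -0.57, but 2 passed 2-fold, the MCM helicase type gene g11054 (1.68 TPM in the rescue line and 4.57 TPM in the control line, -1.05) and the DNA polymerase alpha subunit gene g947 (17.2 and 36.2 TPM in those lines, -1.03). The ratio of g947 was within 2-fold after median-of-ratios scaling (-0.97) and over the Hsf1-/- line (-0.90). The origin recognition gene g2684 (-0.93) and the single-strand binding protein gene g657 (128 TPM in rescue, 194 TPM in control, -0.59) were within 2-fold. DNA repair genes had 1 higher and 3 lower of 56 (median -0.24), and the higher gene reached 1 TPM in the rescue line only. Over all genes tested, 4.57% were higher and 2.41% lower. WT cells had 13.8 TPM of g947 and 93.4 TPM of g657, below the rescue line for both.

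Genes of protein synthesis and breakdown stayed within 2-fold with 1 exception. None of 20 proteasome genes passed 2-fold (median -0.22, 19 below 0 and 17 after median-of-ratios scaling), nor did any of 36 ubiquitin transfer genes (-0.06), 37 translation factors (-0.21) or 34 aminoacyl-tRNA synthetases (-0.25). Of 122 ribosomal protein genes (-0.14), 1 was higher, g9779 of the mitochondrial L49 type, with 243 TPM in the rescue line and 62.2 TPM in the control line (1.95).

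The list of nucleosome genes, mostly histones in near-identical copies, was split, with 11 higher and 7 lower of 84 and a median of 0.19. Its widest ratio belonged to g1009, a gene with 33.4 TPM in the rescue line and 7.32 TPM in the control line (2.05) that is also annotated as an oxidoreductase, and its lowest to the histone H2A gene g8461 (1.89 and 10.6 TPM in those lines, -2.01). Of cytochrome P450 genes, 6 were higher and 3 lower of 38 (median 0.03), beside 4.57% higher and 2.41% lower over all genes tested. Of the 6, 5 reached 1 TPM in the rescue line only, the line where they are high. Among these are g55, its neighbour g54 (2.78) and g11926 (2.15).

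Transcription factor genes had 3 higher and 3 lower of 80, near the share over all genes; besides g10530, the higher ones were the DM-domain gene g730 (16.7 TPM in the rescue line, 1.21 TPM in the control line, 3.00) and a further fork head gene, g5192 (2.71). Membrane transport genes had 7 higher and 11 lower of 131, with the peroxisomal type ABC transporter g14251 (3.13), the monocarboxylate transporter type g12747 (137 TPM in rescue, 22.7 TPM in control, 2.54) and the TRP channel g16077 (2.35) at the upper end. Of 169 protein kinase genes, 2 were higher, led by g2994 (2.61), and of 76 signal transduction genes 1 was higher and 2 were lower, among them the Toll type receptor g1384 (6.48 TPM in the rescue line, 20.9 TPM in the control line, -1.55). In the chitin-binding list, 2 of 14 were higher and 1 was lower, with the imaginal disc growth factor type gene g2540 at 77.3 TPM in the rescue line and 9.02 TPM in the control line (2.97). Hsf1-/- cells had 40.6 TPM of g2540, and over that line the ratio of the rescue line was 0.91, within 2-fold. In the carbohydrate list, 5 were higher and 4 lower of 56, with the beta-mannosidase type gene g8728 at 7.62 TPM in the rescue line and 0.0125 TPM in the control line (3.09). Shares in the remaining lists were 4 higher of 128 oxidoreductases, 3 higher and 1 lower of 42 serine proteases, 2 higher and 1 lower of 12 G protein-coupled receptors, 2 higher and 2 lower of 18 ion channels, 1 higher of 31 lipid metabolism genes, 1 lower of 11 peroxidases and superoxide dismutases, and none of 9 cuticle genes. Over all genes tested, 4.57% were higher and 2.41% lower. Many of the higher genes in these lists reached 1 TPM in the rescue line only. These were 5 of the 7 membrane transport genes, g14251 and g16077 among them, and 3 of the 5 carbohydrate genes. They were also both receptors, both ion channels, and 1 each of the kinase, signal transduction, chitin-binding, oxidoreductase, serine protease and lipid genes.

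A pair of ferritin genes that lie next to each other, named after their values were seen, stood out for their level: g2690 (chr1:19723426-19724509) had 2056 TPM in the rescue line and 708 TPM in the control line (1.54), and g2691 had 1503 and 589.9 TPM in them (1.35). Ferritin stores iron. Hsf1-/- cells had 705 and 551 TPM of the pair, close to the control line. On the other side, the gene of 5-aminolevulinate synthase, the first enzyme of heme synthesis, g9675, also named after its values were seen, had 81.0 TPM in the rescue line and 237 TPM in the control line (-1.54).

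HSE matches were listed for a larger share of higher than of lower genes. A match to any of the 5 motifs in the table was present for 114 of the 358 higher genes (31.8%), 40 of the 189 lower genes (21.2%) and 28.6% of all 7841 tested. For the 4 motifs of 13 to 15 bases that describe a trimeric element (written with 3 units of nGAAn or its reverse nTTCn, and searched on both strands), the shares were 26.3% of higher, 15.3% of lower and 20.7% of all tested genes. Among genes with at least 1 TPM in both lines, they were 28.0% of 189 higher, 15.5% of 142 lower and 20.8% of all 7337 genes. With matches of FIMO p under 1e-05 only, they were 6.15% of higher, 2.12% of lower and 2.91% of all tested genes, and among the 32 genes at least 8-fold higher 4 had such a match (12.5%). The fifth motif is 8 bases long and lies within the longer ones in part; 5.59% of higher, 5.82% of lower and 7.88% of all tested genes had only a match to it. So 94 of the 358 higher genes had a listed match to a trimeric motif and the others had none, while 1504 of 7294 genes within 2-fold (20.6%) had one. The array families gave 44 of the 358 higher genes. Trimeric matches were listed for 9 of 22 tested Lea, 8 of 12 Lil, 6 of 16 Trx and 4 of 14 Pimt genes. Related genes of 1 array were counted singly, here and in the distances below.

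**Figure D5:**
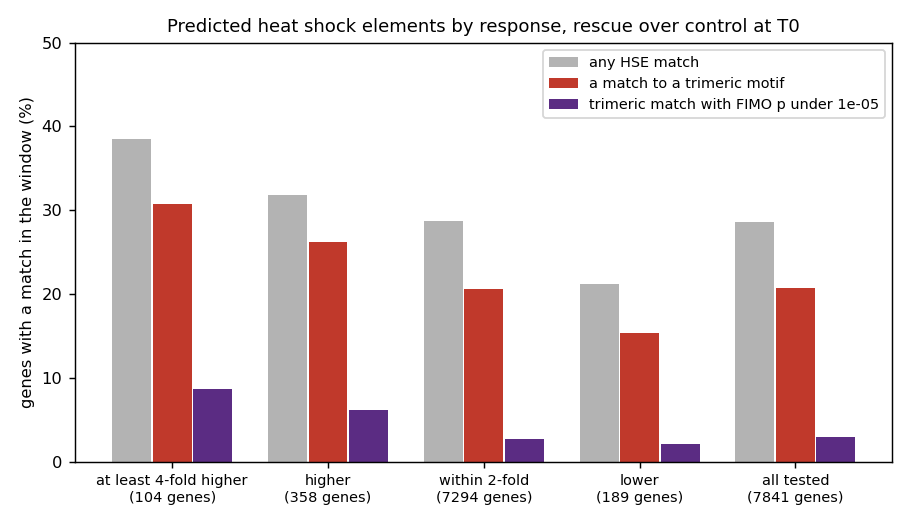
Share of genes (%) with a predicted HSE in the window of 1000 bases, by ratio of HSF1 rescue over HaloTag control at T0: any match (grey), a match to a trimeric motif (red) and a trimeric match of FIMO p under 1e-05 (purple). Red bars stand at 30.8% for genes at least 4-fold higher, 26.3% for higher, 20.6% for genes within 2-fold, 15.3% for lower and 20.7% for all tested genes.

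Among genes with a trimeric match, the best one lay within 100 bases before the centre of the window in 22 of 94 higher genes (23.4%) and in 176 of 1627 tested genes (10.8%). The g5646, g5648, g16359 and g16184 matches shown above lie 117.5, 44.5, 79.5 and 46.5 bases before it, those of the merged Hsp70 gene and g16182 180.5 and 312.5 bases before it, and that of g12182 11.5 bases after it. The gene g12182, which has no annotation, had 43.4 TPM in the rescue line and 3.89 TPM in the control line (3.18), with 4.13 TPM in Hsf1-/- and 32.5 TPM in WT cells. A further gene with a match of low FIMO p (4.23e-06), g4329, had 47.2 TPM in the rescue line and 21.6 TPM in the control line (1.09), and 0.30 over the Hsf1-/- line, within 2-fold. The highest gene, g5213, had a trimeric match of FIMO p 1.11e-05, and the ferritin gene g2690 and the small Hsp gene g5647 had none listed.

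Higher genes were unevenly spread over the genome. Chromosome 4 held 108 of the 358 higher genes (30.2%), 18 of the 189 lower genes (9.52%) and 12.1% of genes tested. In its Lea, Lil, Trx and Pimt arrays 49 of 69 tested genes were higher (71.0%), outside them 59 of 880 (6.70%), and on chromosomes 1 to 3 247 of 6858 (3.60%). These counts include genes that reached 1 TPM in the rescue line only, 13 in the arrays and 32 elsewhere on chromosome 4 among them; with at least 1 TPM in both lines, 36 of 54 (66.7%), 27 of 782 (3.45%) and 124 of 6469 (1.92%) were higher. The Lea, Trx, Pimt and Lil genes together gave 44 of the 358 higher genes (12.3%). Of the higher genes, 90 lay in 23 runs of at least 3 higher genes in a row among the genes tested, with genes under 1 TPM in both lines skipped. Of the lower genes, 18 lay in 6 such runs. The runs include the small Hsp run g5646 to g5648 and the run g2689 to g2691, which holds the ferritin pair. They also include the collagen run around g5801 and the lower run g5364 to g5366.

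Values in the other lines were compared by position, for genes chosen on the rescue and control values. Of the 358 higher genes, Hsf1-/- cells were at or below the control line for 87, between the lines and nearer control for 201, between them and nearer rescue for 53 and at or above rescue for 17. WT cells were at or below control for 75 of them, nearer control for 139, nearer rescue for 90 and at or above rescue for 54. Of the 189 lower genes, Hsf1-/- cells were at or beyond the control line for 71, nearer control for 92, nearer rescue for 24 and at or beyond rescue for 2, whereas WT cells were at or beyond control for 16, nearer control for 42, nearer rescue for 61 and at or beyond rescue for 70. Set against the Hsf1-/- line in place of the control line, the rescue line had 330 higher (4.20%) and 257 lower (3.27%) genes of 7853, or 7.47% in all.

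The same lines after 48 h of trehalose, in separate libraries of the same clones, kept many of these differences. At T48 the rescue line had 493 higher (5.83%) and 1201 lower (14.2%) genes of 8454 over the control line, with a median log2 ratio of -0.34. Of the 358 genes higher at T0, 185 were higher at T48, which is 51.7% of the T0 list and 37.5% of the T48 list, 23 were lower, 120 were within 2-fold and 30 were under 1 TPM in both lines. Of the 189 genes lower at T0, 93 were lower at T48 (49.2% of the T0 list and 7.74% of the T48 list) and 1 was higher. The summed Lea level at T48 was 172205 TPM in the rescue line and 61310 TPM in the control line. The merged Hsp70 gene g239,g240,g241 had 64.6 TPM in the rescue line at T48 and 0 TPM listed in the control line, and g5646 had 184 and 35.1 TPM in those lines. Trehalase, g17178, was within 2-fold at T48, with 1111 TPM in the rescue line and 1049 TPM in the control line.

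Genes next to the 2-fold line show what the count rests on. Just inside it were g3019 (2.12 TPM in the rescue line and 0.554 TPM in the control line) and g16583 (823 and 409 TPM in those lines), and just outside it g7967 (16.2 and 7.61 TPM) and g6991 (1.24 and 0.124 TPM). On the lower side, g14847 (0.935 and 2.88 TPM in the rescue and control lines) and g11534 (0.760 and 2.52 TPM) were just inside, and g2950 (12.9 and 26.8 TPM) and g22 (7.34 and 15.6 TPM) just outside.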

How the data were processed

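Poly(A) RNA was sequenced, and per the labels and the study's methods the authors used Trimmomatic for trimming, HISAT2 for alignment to the Pv_5.2 assembly, SAMtools 1.9 and Picard for sorting and duplicates, and HTSeq 0.6.0 for counts per gene, in which reads that fit more than 1 place or gene were left out. The use of strand in the counting is not given in the sources used here. The authors converted the counts to TPM, scaled by gene length and to the same total in each library, and deposited the mean of the 3 libraries of each group. TPM keeps no depth, and read totals per library, which the study's supplement gives, were not used here. The deposited HSE columns give the FIMO score and p-value of each match at p under 0.0001. Match positions were taken as counted from the low end of the window, since 115 of 118 matches seen in 2 windows of a minus-strand gene then fell on the same place, and none did counted from the high end. The authors' cluster numbers were not used.

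Limma had been planned for a table of libraries; with group means no test was run. Each of 17782 genes was taken once from 25248 lines. Log2 ratios used a pseudocount of 1, genes needed 1 TPM in either line, and a call needed a log2 ratio of 1 in size. Python 3.11.15, numpy 2.4.6, pandas 2.3.3 and matplotlib 3.10.9 were used. The call rule was run on simulated group means with changes above 2-fold planted in genes of at least 10 TPM. That run checks the code and not how reliable calls near 2-fold or of low genes are. The members and lists were chosen with earlier results of these data known. The lists of Lea, Trx, Pimt, Lil, trehalose and Hsp genes are the study's, the Hsp genes found there by protein domain, and the others come from the deposited annotation. Named genes are the HSF-domain gene and g7775, the 12 highest and 10 lowest called genes with at least 10 TPM in the higher line, up to 3 members of widest ratio and the most abundant member of each list, the 5 most abundant genes of the rescue line, the 6 higher genes of at least 10 TPM with trimeric matches of lowest FIMO p, and genes next to the 2-fold line; others are marked where named.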

Additional observations from a re-analysis of the deposited data

How the results depend on the processing

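No paired analysis was possible because the table gives only group means; for the same reason no library could be left out. With a pseudocount of 0.1 in place of 1, 822 genes passed 2-fold, 325 of them lower, and with 0.01, 846 passed and 332 were lower, since a smaller pseudocount lets genes of low level through. A minimum of 5 TPM left 227 higher genes, and with no minimum the share of all genes compared with a trimeric HSE match was 19.8%. With FIMO p under 1e-05 the shares were 6.15% of higher, 2.12% of lower and 2.91% of all tested genes, fewer by construction. With the Hsf1-/- line as the control, g3019 had a log2 ratio of -0.12, the opposite direction (the cause was not tested), and 13 of 90 named genes past 2-fold no longer passed it, g3488, g14582 and g947 among them. Median-of-ratios scaling took 3 of the 90 within 2-fold (g947, g14847 and g11534), and a pseudocount of 0.1 took none. Leaving out the 10 most abundant genes took none of the 88 that remained.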
